A study of Mus musculus with 56 samples.

Results

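The 24-h course of the kidney transcriptome under nighttime-restricted feeding (NRF) was described from 28 libraries, the NRF arm of a series of 56 kidney libraries. Every NRF library was used, 4 mice at each of 7 zeitgeber times (ZT, hours after lights on): ZT0, ZT4, ZT8, ZT12, ZT16, ZT20 and ZT24. One ZT24 column bore a number that matches no label of its group, so it was used as a ZT24 mouse without a replicate number, and leaving out the mice numbered 4 removed no ZT24 mouse. The animals were C57BL/6J females without any genetic change, 9 weeks old at collection, which had lived in 12 h of light and 12 h of dark with free access to chow for 7 days and had then been fed only at night for 7 days. The other 28 libraries came from mice of the same strain, sex and age that were fed only by day (DRF). Because ZT24 falls at the same clock time as ZT0, the 7 groups cover 6 clock times at a 4-h interval, and both groups entered the fits at the same phase.

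The kidney carries a cell-autonomous circadian clock. In its core loop the activators CLOCK, NPAS2 and BMAL1 (the product of Arntl) switch on the Per and Cry repressors, which shut the activators down, while REV-ERB and ROR nuclear receptors repress and activate Arntl in turn. Tubular transport, fuel use and protein folding run on top of this loop and also follow feeding, hormones and body temperature, so a night-fed nocturnal animal fasts in the light phase and eats in the dark phase.

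Levels are given as TPM, read counts scaled for transcript length and library size, and were rebuilt from the deposited table. A gene was called rhythmic when a 24-h cosine passed limma's moderated F test with a Benjamini-Hochberg adjusted p under 0.05 over all 13192 genes tested. The peak is the time of that cosine's maximum in hours after lights on, and the amplitude is the log2(TPM + 1) difference between the maximum and the cosine's midline. The 28 libraries held 24.6 to 26.3 M recovered reads each, and libraries of the same group correlated at a median of 0.986 (lowest 0.969 of 42 pairs). Proximal tubule markers summed to 39100 to 141000 TPM and podocyte markers to 296 to 606 TPM in these libraries, as fits kidney, against 7.7 to 16.6 TPM for 6 measured markers of the adrenal gland. Markers of the renal medulla summed to 473 to 3210 TPM and those of adipose tissue to 18.2 to 3210 TPM, and 6 libraries stood high for each kind, 4 of them for both. Of the markers tested, 0 of 8 medullary and 0 of 6 adipose ones passed as rhythmic, which does not exclude a daily course. The adipose markers had a median amplitude of 1.04, and up to 3 of the 6 passed without a replicate number. Their sums averaged 40.1 ± 24.8 TPM at ZT8 and 938 ± 1520 at ZT12 (SD, n = 4).

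Rhythms were widespread and mostly shallow. In total 7154 of 13192 genes were rhythmic (54.2%). Their median amplitude was 0.19, against 0.13 over all genes tested, and 1689 of them (12.8% of the genes tested) had a fitted peak at least 1.5 times the trough. Only 50 reached an amplitude of 1. The median standard error of a peak time was 0.812 h.

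With TPM, most peak times fell in the middle of the light phase and at the end of the dark phase. By 4-h window, 985 rhythmic genes peaked at 0 to 4 h (7.47% of the genes tested), 2542 at 4 to 8 h (19.3%), 1178 at 8 to 12 h (8.93%), 242 at 12 to 16 h (1.83%), 567 at 16 to 20 h (4.3%) and 1640 at 20 to 24 h (12.4%). The sizes of these groups depended on scaling. When the libraries were rescaled by the median of gene ratios, 7179 genes were rhythmic (54.4%), and the windows in the same order held 509 (3.86%), 1478 (11.2%), 1608 (12.2%), 545 (4.13%), 1368 (10.4%) and 1671 genes (12.7%). The sparse 12-to-16-h window and the well-filled 20-to-24-h window appeared under both scalings, whereas the predominance of 4 to 8 h did not. Under both scalings 6254 genes were rhythmic, and 6112 of those had peaks at most 2 h apart. Genes called under a single scaling are outside that comparison, and a shift within 2 h can still change the window. Leaving out the mice numbered 3 lowered the rhythmic count to 5202, with 618 genes left at 0 to 4 h and 1652 at 4 to 8 h. Leaving out those numbered 2 left 157 genes at 12 to 16 h and 338 at 16 to 20 h, and leaving out the ZT16 group left 215 at 16 to 20 h and 1687 at 4 to 8 h.

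**Figure D1:**
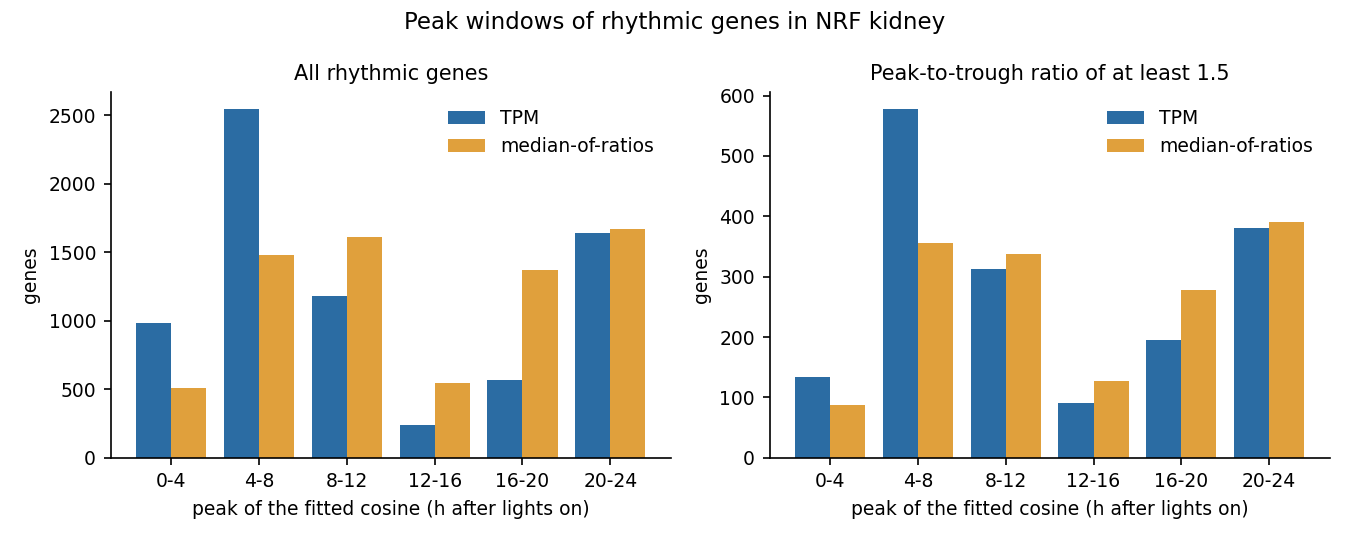
Number of rhythmic genes (y axis) by 4-h window of the fitted peak (x axis, hours after lights on) in NRF kidney, for all rhythmic genes on the left and for those with a fitted peak-to-trough ratio of at least 1.5 on the right. Blue bars are TPM and orange bars the median-of-ratios rescaling; the 4-to-8-h window fell from 2542 to 1478 genes and the 16-to-20-h window grew from 567 to 1368 on rescaling, while 20 to 24 h held 1640 and 1671.

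The clock held the largest amplitude of the genes named here. Of 23 clock and clock-output genes, 21 were rhythmic, all but the casein kinases Csnk1d (adjusted p = 0.11) and Csnk1e (0.69). That amplitude belonged to Dbp, a transcription factor driven by the clock. Its TPM in the 4 mice was 222, 224, 235 and 258 at ZT12 and 1.07, 1.12, 1.90 and 2.29 at ZT24. No mouse at another time reached the ZT12 values, the nearest being 177 at ZT8, and the ZT0 mice (1.54 to 2.85) overlapped those of ZT24. The fitted peak was at 10.6 h (SE 0.172), with an amplitude of 3.27 and a peak-to-trough ratio of 93.2 (adjusted p = 1.97e-16). The end of Dbp on chromosome 7 (GRCm38, 45705088 to 45710203, plus strand) overlaps Sphk2 on the minus strand (45709467 to 45718002), and reads from the shared stretch cannot be told apart.

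Arntl ran nearly opposite to Dbp. Its TPM was 19.99, 22.1, 22.5 and 23.4 at ZT0 and 0.343, 0.424, 0.457 and 1.39 at ZT12, so every mouse at ZT0 stood above every mouse at ZT12, and the peak was at 22.7 h (SE 0.168, amplitude 1.94). Its partner Npas2 peaked at 23.96 h with a mean of 20.1 ± 0.68 TPM (SD, n = 4) at ZT24 and 0.536 ± 0.387 at ZT12. Nr1d1, which encodes the repressor REV-ERB alpha, reached 181, 188, 207 and 221 TPM at ZT8 and fell to 5.72, 6.56, 6.71 and 8.67 at ZT20, the lowest group without overlap.

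The repressors followed in a fixed order. Per2 was at 65.3, 65.3, 67.9 and 71.4 TPM at ZT16 and at 2.63, 3.15, 4.29 and 4.35 at ZT4, with a peak at 14.7 h (SE 0.159). Cry1, the late repressor, was at 27.0, 28.4, 32.5 and 36.2 TPM at ZT16 against 2.14, 2.26, 2.29 and 2.52 at ZT4, with a peak at 17.8 h. Neither gene's high and low groups overlapped.

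From Nr1d1 on, the peaks ran through Nr1d1 (7.80 h), Nr1d2 (10.3 h), Dbp (10.6 h), Ciart (10.9 h), Bhlhe41 (10.9 h), Rora (10.98 h), Tef (11.7 h), Per3 (12.0 h), Per1 (12.1 h), Hlf (12.1 h), Bhlhe40 (12.1 h), Cry2 (12.8 h), Per2 (14.7 h), Cry1 (17.8 h), Nfil3 (20.5 h), Clock (22.1 h), Arntl (22.7 h) and Npas2 (23.96 h). For each pair of neighbours from Nr1d2 to Cry2 the 95% interval of the gap included no gap, as it did for Clock and Arntl. Gaps whose interval excluded it followed Nr1d1 (2.50 h), Cry2 (1.97 h), Cry1 (2.75 h), Nfil3 (1.62 h) and Arntl (1.28 h).

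**Figure D2:**
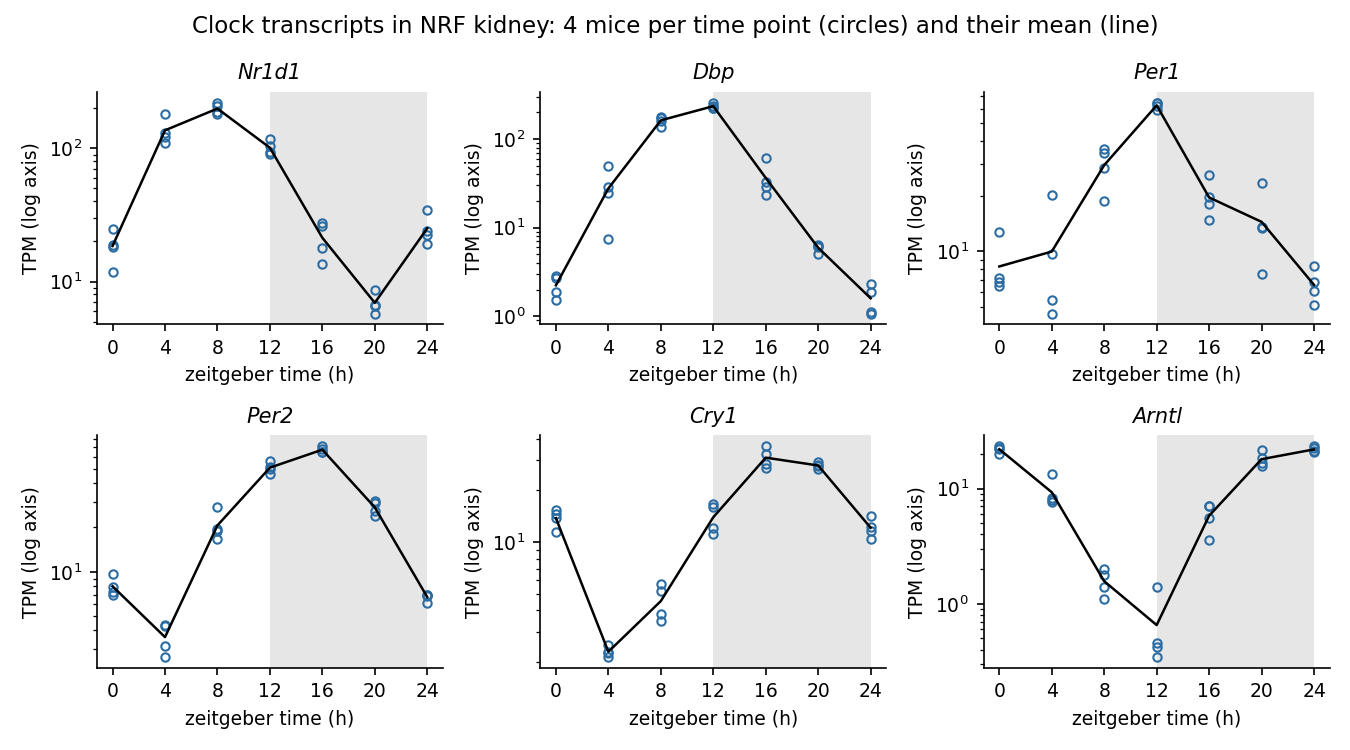
TPM on a log axis (y) against zeitgeber time (x, h) for 6 clock transcripts in NRF kidney; circles are single mice, lines join the means of 4 mice, and the grey area is the dark phase. Peaks step from Nr1d1 at ZT8 through Dbp and Per1 at ZT12 to Per2 and Cry1 at ZT16 and Arntl at ZT20 to ZT24, and ZT24 returned to the level of ZT0.

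Promoter sequences of 4 of these genes are shown because their windows hold the elements through which the loops are known to act, the E-box (CACGTG, bound by the activators) and the ROR core (TAGGTCA, shared by REV-ERB and ROR). The windows run from 250 bases before to 50 bases after the RefSeq start on GRCm38.p6, are written 5′ to 3′ on the gene's strand, and were searched on both strands; capitals mark the match, which in Nfil3 lies on the opposite strand.
Ciart promoter, chr3:95882179-95882478, minus strand: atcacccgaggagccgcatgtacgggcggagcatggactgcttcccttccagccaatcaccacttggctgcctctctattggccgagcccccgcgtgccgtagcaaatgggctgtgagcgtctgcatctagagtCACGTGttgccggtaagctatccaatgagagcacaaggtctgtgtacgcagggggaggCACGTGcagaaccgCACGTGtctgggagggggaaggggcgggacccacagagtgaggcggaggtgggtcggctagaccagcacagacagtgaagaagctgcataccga
Cry1 promoter, chr10:85185005-85185304, minus strand: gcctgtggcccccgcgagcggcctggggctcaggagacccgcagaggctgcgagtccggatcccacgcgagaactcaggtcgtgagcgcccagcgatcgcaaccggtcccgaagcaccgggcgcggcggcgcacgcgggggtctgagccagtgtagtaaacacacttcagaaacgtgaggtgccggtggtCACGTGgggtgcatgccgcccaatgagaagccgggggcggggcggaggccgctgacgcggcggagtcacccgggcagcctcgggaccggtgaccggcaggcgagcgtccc
Arntl promoter, chr7:113207261-113207560, plus strand: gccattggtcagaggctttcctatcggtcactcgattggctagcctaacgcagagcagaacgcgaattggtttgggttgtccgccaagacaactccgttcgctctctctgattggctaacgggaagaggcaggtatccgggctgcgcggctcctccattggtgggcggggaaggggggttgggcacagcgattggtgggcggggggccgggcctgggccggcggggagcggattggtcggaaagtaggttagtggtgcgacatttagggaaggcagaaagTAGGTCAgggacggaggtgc
Nfil3 promoter, chr13:52980990-52981289, minus strand: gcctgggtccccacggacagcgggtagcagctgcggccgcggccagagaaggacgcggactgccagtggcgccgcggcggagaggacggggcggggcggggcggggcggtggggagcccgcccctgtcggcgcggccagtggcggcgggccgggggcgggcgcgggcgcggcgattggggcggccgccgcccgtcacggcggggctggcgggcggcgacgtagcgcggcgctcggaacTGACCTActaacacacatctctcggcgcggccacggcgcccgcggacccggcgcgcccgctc

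Among the rhythmic clock repressors 7 had a window, and 4 of these held an E-box (57.1%): Ciart, with 3 copies, Bhlhe41, Cry1 and Per1. Of the 10363 tested genes with a window, 11.4% held one. The ROR core was present in 2.44% of those windows, and among the clock lists in Arntl and Nfil3. These are matches to letters, and binding was not measured here.

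Gene lists of 55 functions were then followed through the windows, 46 of which had at least 5 rhythmic members. In 10 of the 46, most rhythmic members peaked in a single window under both scalings. They were interferon response at 4 to 8 h, fatty acid oxidation and peroxisome biogenesis at 8 to 12 h, cytosolic heat shock proteins, endoplasmic reticulum (ER) chaperones and vesicle coats at 16 to 20 h, and cholesterol synthesis, distal calcium and magnesium handling, complex I and ATP synthase at 20 to 24 h. None of the 10 was at 0 to 4 h or at 12 to 16 h. The peaks are those of fitted cosines, and the interferon list was near its own mean at ZT4 and above it at ZT0 and ZT8.

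**Figure D3:**
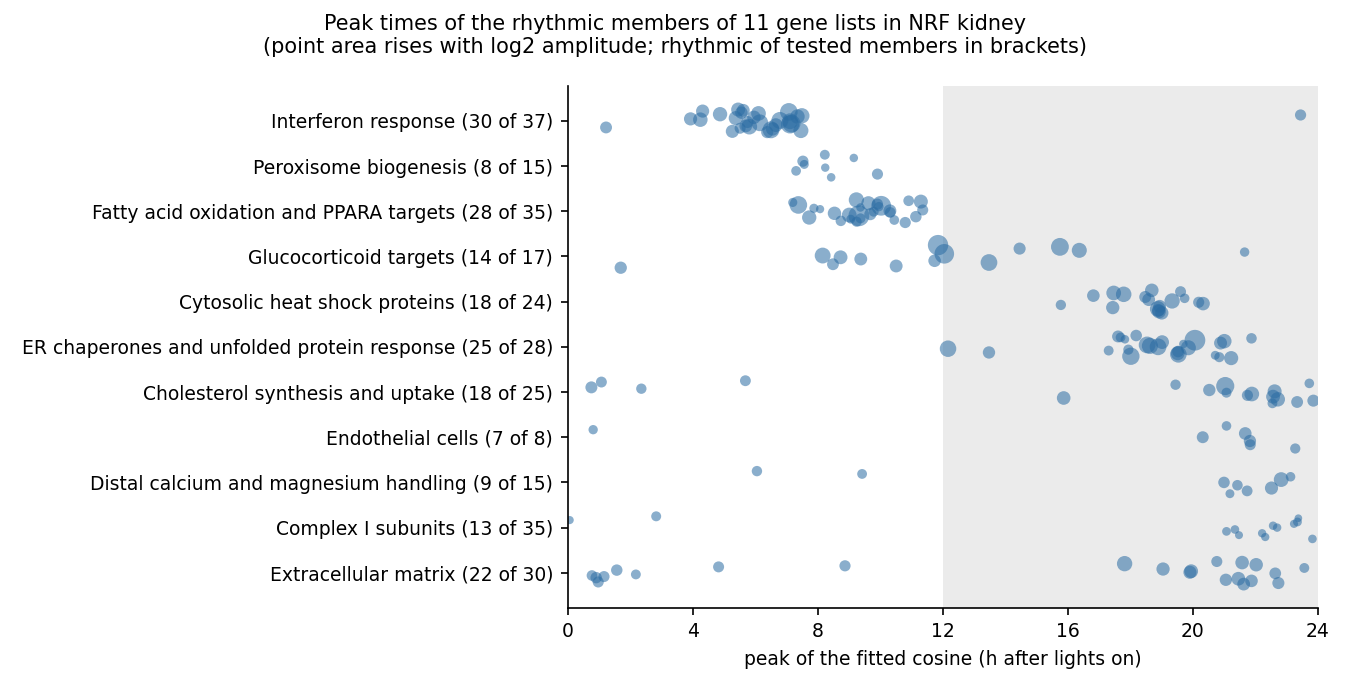
Fitted peak times (x axis, hours after lights on) of the rhythmic members of 11 gene lists in NRF kidney; each point is a gene, its area rises with the log2 amplitude, the vertical spread only separates points, and grey marks the dark phase. Points of fatty acid oxidation gather before lights off, those of the cytosolic and ER chaperones after it, and those of cholesterol synthesis, endothelial markers and complex I at the end of the dark phase.

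At 0 to 4 h, the first hours of light, the genes of largest amplitude among those averaging at least 10 TPM served sulfide and amine metabolism and cell contacts. Ethe1, a mitochondrial sulfur dioxygenase, was at 207, 229, 229 and 243 TPM at ZT24 and at 66.5, 68.5, 70.3 and 75.5 at ZT12, a rhythm with a peak at 1.25 h and an amplitude of 0.84. Ddc, the decarboxylase that makes renal dopamine, stood at 143, 146, 155 and 162 TPM at ZT4 against 58.9, 60.1, 71.8 and 80.1 at ZT16 (peak 2.15 h). The tight junction gene Cldn1 was at 37.5, 42.4, 44.2 and 47.0 TPM at ZT0 and at 12.4, 17.2, 18.3 and 20.6 at ZT12. In all of them the 4 high mice lay above the 4 low mice. Fabp7, a fatty acid binding protein, peaked at 2.98 h (amplitude 0.87), and Arhgef10l, a guanine nucleotide exchange factor, at 0.14 h (amplitude 0.74).

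At 4 to 8 h, the middle of the daily fast, genes of fasting and of low temperature were high. Igfbp1, an insulin-repressed binding protein of growth factors, was at 65.2, 83.3, 92.9 and 114 TPM at ZT4 and at 17.7, 17.9, 20.5 and 23.1 at ZT16, with a peak at 7.28 h (amplitude 1.16). Depp1, a FOXO-induced gene, peaked at 7.36 h (amplitude 1.32). Autophagy and lysosome genes had 23 rhythmic members of 34 tested, 13 of them in this window, although only 4 of 23 were there after rescaling. Wipi1, a component of the early autophagosome, was at 23.4, 24.8, 27.2 and 29.1 TPM at ZT8 and at 9.03, 9.75, 10.3 and 10.4 at ZT16. Cirbp, a cold-induced RNA-binding protein, was at 65.6, 66.1, 73.1 and 84.1 TPM at ZT8 against 13.8, 14.2, 15.1 and 15.7 at ZT16, the peak being at 7.28 h (amplitude 1.05, adjusted p = 6.76e-09). Rbm3, its close relative, peaked later, at 10.2 h.

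Single genes of nephron transport and of vitamin D metabolism also peaked in this window, but transport as a whole did not gather here. Of 19 amino acid transport genes 12 were rhythmic, with 2 here, 4 at 0 to 4 h and 4 at 8 to 12 h. Of 7 glucose and fructose transport genes 3 were rhythmic (42.9%, below the 54.2% of all genes), 2 of them here. The neutral amino acid transporter Slc6a19 was at 189, 268, 349 and 449 TPM at ZT4 and at 64.8, 75.3, 84.2 and 86.5 at ZT16, separate groups with a wide spread among the high mice, and it peaked at 6.91 h. Cyp24a1, which inactivates vitamin D, was at 97.6, 192, 197 and 262 TPM at ZT8 and at 3.64, 11.4, 22.4 and 24.3 at ZT0 (peak 7.89 h, amplitude 1.37, adjusted p = 0.0028). The vitamin D receptor gene Vdr peaked close by, at 6.89 h, with means of 281 ± 22.1 at ZT8 and 151 ± 16.9 at ZT16. Slc2a5, a fructose transporter, peaked at 6.98 h and the glucose transporter Slc2a2 at 4.52 h. In the phosphate and vitamin D list, which holds Cyp24a1 and Vdr, 7 of 12 genes were rhythmic, a share near that of all genes.

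At 8 to 12 h, the end of the fast, fatty acid oxidation and targets of the nuclear receptor PPARA were high. Of 35 genes tested 28 were rhythmic, and 24 of the 28 peaked in this window (25 of 28 after rescaling). Their median amplitude, 0.276 over all 35, compares with 0.13 over all genes. Angptl4, a lipoprotein lipase inhibitor, was at 73.6, 76.8, 99.9 and 143 TPM at ZT8 and at 3.01, 3.73, 4.82 and 5.52 at ZT0, with no overlap, and peaked at 9.32 h (amplitude 1.94, adjusted p = 9.08e-08). Pdk4, a brake on glucose oxidation, was at 71.3, 72.8, 102 and 130 TPM at ZT8 and at 20.9, 21.6, 23.5 and 25.1 at ZT0, and its fitted peak came earlier, at 7.38 h. Cpt1a, the entry step of fatty acids into mitochondria, peaked at 9.01 h (amplitude 0.67) and Ppara itself at 9.62 h (amplitude 0.61). Acadm, Etfb, Hadhb, Acot4, Abcd2, Creg1 and Cyp4a12a did not pass the test. Peroxisome biogenesis, which houses part of the same pathway, had 8 rhythmic genes of 15, 5 of them at 8 to 12 h, among them Pex11a (9.91 h) and Pex3 (8.23 h), and the share of rhythmic genes (53.3%) was near that of all genes (54.2%).

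Other genes of this window included a sodium transporter and genes of hormone action. Sodium reabsorption was not gathered here. Of 11 genes of the epithelial sodium channel and the aldosterone pathway 7 were rhythmic (63.6%). Of these 1 peaked at 4 to 8 h, 1 here, 3 at 12 to 16 h and 2 at 16 to 20 h. Slc9a3, the proximal sodium-proton exchanger NHE3, was at 110, 111, 116 and 125 TPM at ZT8 and at 54.5, 59.6, 68.8 and 73.9 at ZT20, with a peak at 8.79 h, and it was 1 of only 2 rhythmic genes among 11 genes of NHE3, NKCC2, NCC and the WNK kinases. Of 20 genes of insulin and FOXO signalling 15 were rhythmic and 7 peaked here, including Foxo3 (10.2 h, amplitude 0.51), Irs2 (8.49 h, amplitude 0.48) and the insulin receptor Insr (8.32 h, amplitude 0.24). Glucocorticoid targets had 14 rhythmic members of 17, with 7 at 8 to 12 h and 4 at 12 to 16 h, so that the list straddled lights off. Its mean level was highest at ZT12, at 0.52 ± 0.088 (SD, n = 4) log2 units above its own mean over the NRF libraries.

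The 12-to-16-h window after lights off was the sparsest with TPM (242 genes), though after rescaling it held 545 genes against 509 at 0 to 4 h, and the clock and glucocorticoid targets supplied its strongest genes. By the same minimum, the 5 of largest amplitude were Per2 (1.90), Per3 (1.66), Per1 (1.31), Tsc22d3 (1.05) and Usp2 (0.99), the last a deubiquitinase that peaked at 12.6 h. Per1 was at 59.1, 62.3, 64.2 and 64.8 TPM at ZT12, when mice differed little, against 4.58, 5.42, 9.73 and 20.2 at ZT4. Tsc22d3, which encodes the glucocorticoid-induced leucine zipper, was at 60.5, 61.3, 62.7 and 103 TPM at ZT16 and at 11.3, 12.1, 15.1 and 21.7 at ZT4 (peak 15.8 h). The receptor cochaperone Fkbp5 was at 18.5, 28.9, 36.6 and 42.7 TPM at ZT16 and at 5.92 to 8.53 at ZT4 (peak 13.5 h), without overlap. Zbtb16, another glucocorticoid target, peaked just before lights off at 11.8 h with the largest amplitude of its list (1.43), from 1.57 ± 0.475 TPM at ZT0 to 17.3 ± 8.1 at ZT12. Wee1, a kinase that delays mitosis and a known clock target, peaked at 13.8 h, Nampt, the rate-limiting enzyme of NAD salvage, at 12.8 h, and Pck1, the gluconeogenic carboxykinase, at 12.4 h (8293 ± 545 TPM at ZT12 and 3866 ± 835 at ZT24).

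At 16 to 20 h, within the dark phase, chaperones of the ER and the heat shock proteins of the cytosol were high. Of 28 tested genes of ER chaperones and the unfolded protein response 25 were rhythmic, 16 of them in this window and 7 in the next, and after rescaling all 28 were rhythmic with 20 here. Of 24 cytosolic heat shock genes 18 were rhythmic and 15 peaked here (20 and 17 after rescaling). The genes that did not pass were Hspa1a, Hspa1b, Hspa2, Hspb8, Bag3 and Dnajb1, of which Hspa1a and Hspa1b are near-identical copies whose reads the counting could split. Other folding genes were less gathered: of 12 TRiC chaperonin subunits 6 were rhythmic with 2 here, and of 9 mitochondrial chaperones 6 were rhythmic with 2 here. Median amplitudes over the tested members were 0.40 for the ER list and 0.462 for the heat shock list.

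Sdf2l1, Manf and Syvn1 rose after lights off more sharply than a cosine. They were among the genes that departed most clearly from a cosine, so their shape does not stand for the whole ER list. Fitted peaks of its rhythmic members ran from 12.2 h (Herpud1) to 21.9 h (Sec61b). Sdf2l1, an ER protein of the BiP complex, was at 9.08, 9.21, 9.53 and 11.8 TPM at ZT12 and at 87.3, 90.7, 97.2 and 110 at ZT16, and was still at 82.7 ± 7.44 at ZT20. Manf, a secreted ER stress protein, went from 27.3 to 35.3 TPM at ZT12 to 143, 144, 159 and 166 at ZT16. The ubiquitin ligase Syvn1 was at 29.2 to 33.4 TPM at ZT12, at 69.5, 74.1, 80.2 and 89.2 at ZT16, and back at 37.3 ± 3.68 at ZT20. No mouse at ZT12 overlapped a mouse at ZT16 for any of these genes.

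Cytosolic chaperones differed in how long they stayed high. Dnaja1, a cochaperone of HSP70, was at 71.9 to 87.4 TPM at ZT12, at 203, 208, 221 and 229 at ZT16, and at 69.6, 76.1, 87.6 and 98.7 at ZT20, so the ZT20 mice overlapped those of ZT12. Hsp90aa1, the inducible HSP90, was at 229, 232, 256 and 368 TPM at ZT12 and at 684, 833, 845 and 943 at ZT16, and stayed at 667 ± 17.6 at ZT20. Over all 24 heat shock genes the mean level was -0.294 ± 0.284 log2 units from its own mean at ZT12, 0.823 ± 0.189 at ZT16 and -0.0257 ± 0.139 at ZT20 (SD, n = 4). The ER list went from -0.418 ± 0.0779 to 0.573 ± 0.129 and then to 0.292 ± 0.0462. Both lists were thus high at ZT16, and at ZT20 the ER list was still up while the heat shock list was near its mean.

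A test of any difference among the 6 clock times called 6504 genes (49.3%, and 6992 or 53% after rescaling). Departure from a single cosine, tested by setting the 6 clock times against the 24-h fit, was found for 868 of 13192 genes (6.58%, and 1498 or 11.4% after rescaling). Among heat shock genes it was found for 20 of 24, among ER genes for 20 of 28 and among interferon genes for 22 of 37. The 5 smallest p-values belonged to Syvn1, Sdf2l1, Dnaja1, Ahsa1 and Manf, all of these lists. Of the 720 genes that were rhythmic and departed from the cosine, 180 were highest and 319 (44.3%) were lowest at ZT16. ZT16 was thus an extreme for most of them. Among all 7154 rhythmic genes, 813 (11.4%) were highest and 2428 (33.9%) lowest at ZT16, so a low at that time was common in general. The count of 868 was 391 without the mice numbered 2, 104 without those numbered 3 and 319 without those numbered 4, and 371 without the 6 libraries of highest medullary level.

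**Figure D4:**
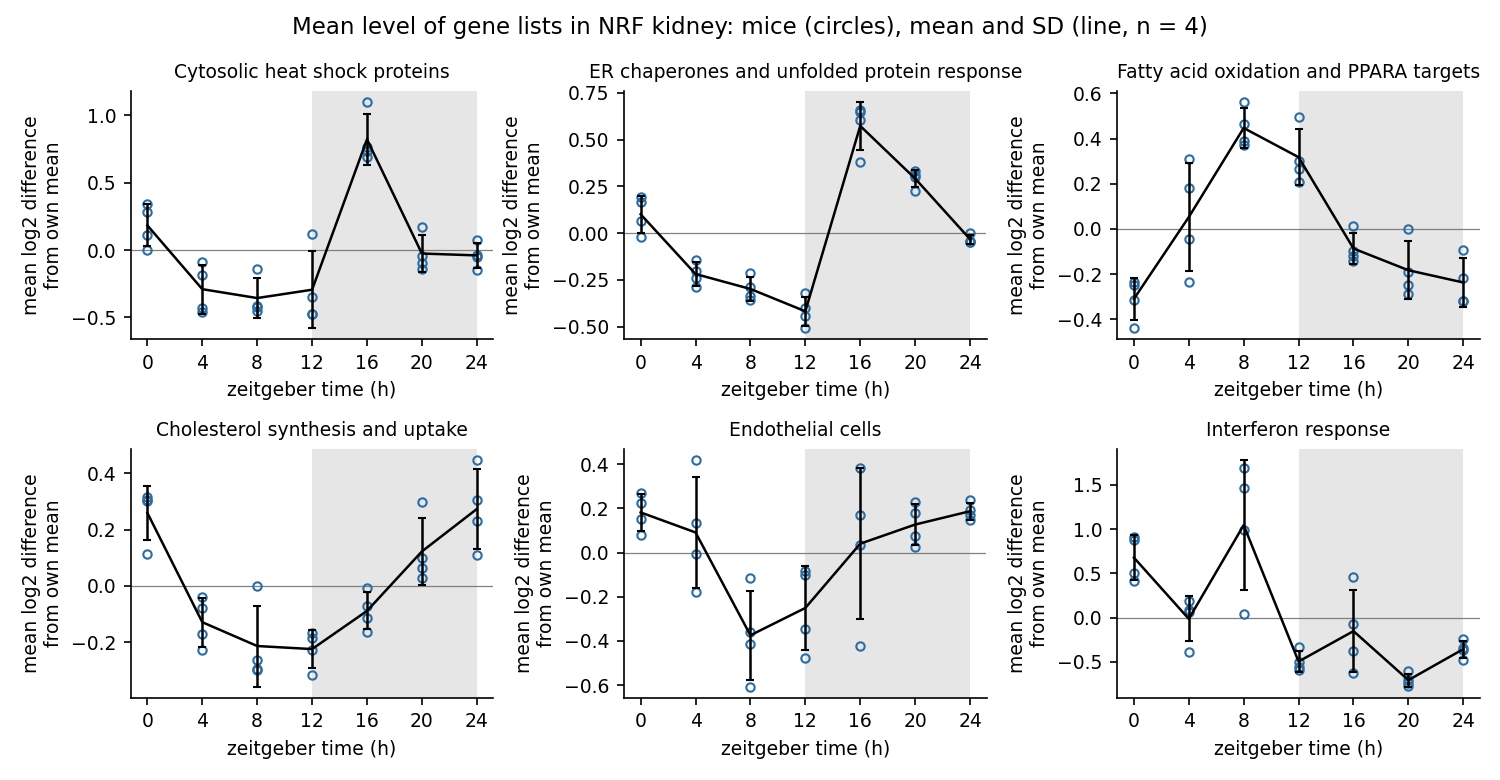
Mean level of 6 gene lists (y axis, mean log2 difference of the tested members from their own mean over the NRF libraries) against zeitgeber time (x axis, h); circles are single mice and the line and bars show the mean and SD of 4 mice, with the dark phase in grey. The heat shock list stood at 0.823 at ZT16 and near its mean at ZT20, the ER list at 0.573 at ZT16 and 0.292 at ZT20, fatty acid oxidation was highest at ZT8, cholesterol synthesis at ZT24, and the interferon list differed between ZT0 (0.678) and ZT24 (-0.355).

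Promoters of 3 of these chaperone genes are shown for the elements of the ER stress and heat shock responses, the ER stress response element (CCAAT, then any 9 bases, then CCACG, bound by ATF6 with NF-Y) and the heat shock element core (GAANNTTC, bound by HSF1). Windows, build and search are as above, and capitals mark the element, which in Creld2 lies on the opposite strand.
Creld2 promoter, chr15:88819396-88819695, plus strand: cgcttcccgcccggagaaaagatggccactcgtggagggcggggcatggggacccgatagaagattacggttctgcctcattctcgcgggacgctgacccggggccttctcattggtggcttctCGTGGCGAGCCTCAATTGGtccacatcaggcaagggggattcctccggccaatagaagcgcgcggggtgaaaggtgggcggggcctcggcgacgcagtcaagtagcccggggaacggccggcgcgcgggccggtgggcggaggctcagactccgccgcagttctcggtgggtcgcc
Hspa5 promoter, chr2:34771840-34772139, plus strand: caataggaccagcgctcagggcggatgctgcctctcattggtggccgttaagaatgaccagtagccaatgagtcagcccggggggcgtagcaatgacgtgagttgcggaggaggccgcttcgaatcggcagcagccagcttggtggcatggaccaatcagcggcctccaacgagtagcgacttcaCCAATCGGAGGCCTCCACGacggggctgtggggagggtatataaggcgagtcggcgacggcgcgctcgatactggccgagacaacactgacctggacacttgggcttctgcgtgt
Chordc1 promoter, chr9:18292017-18292316, plus strand: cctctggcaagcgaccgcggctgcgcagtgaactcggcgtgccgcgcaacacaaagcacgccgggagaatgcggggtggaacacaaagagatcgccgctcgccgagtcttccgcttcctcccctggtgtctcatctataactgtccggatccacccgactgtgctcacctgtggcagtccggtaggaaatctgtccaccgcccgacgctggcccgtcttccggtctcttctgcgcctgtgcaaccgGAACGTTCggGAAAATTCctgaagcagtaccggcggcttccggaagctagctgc

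The ER stress response element occurred in 9 of the 21 rhythmic ER genes with a window (42.9%), against 19 of all 10363 tested genes with a window (0.183%). The 9 were Hspa5, Derl3, Hsp90b1, Calr, Dnajc3, Canx, Pdia6, Creld2 and Syvn1. Creld2 was at 37.7 ± 2.46 TPM at ZT12 and 184 ± 15.8 at ZT16, and Hspa5, the gene of the chaperone BiP, peaked at 18.9 h with an amplitude of 0.91. The heat shock element core occurred in 6 of 13 rhythmic heat shock genes with a window (46.2%), namely Dnaja1, Hspb1, Hsph1, Fkbp4, Chordc1 and Dnaja4, against 7.02% of all. Chordc1, an HSP90 cochaperone, peaked at 18.9 h and rose from 14.2 ± 0.849 TPM at ZT8 to 51.2 ± 5.05 at ZT16. The lists were drawn up around these known responses, so the matches are a description of the members.

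Other genes of the 16-to-20-h window belonged to conjugation, nitrogen handling and growth. Nat8f5, an acetyltransferase gene of the Nat8 cluster, had the largest amplitude (1.82), at 62.6, 72.7, 83.7 and 84.8 TPM at ZT16 and 1.29, 5.24, 9.01 and 9.35 at ZT4, and Nat8f6 followed after Cry1 with 1.48. These neighbours are close in sequence and the counting could split reads between them, so their separate levels are uncertain. Glul, glutamine synthetase, was at 436, 496, 533 and 560 TPM at ZT4 and at 1494 ± 206 at ZT16 (peak 17.9 h). Pnpla3, a lipid droplet acyltransferase, passed the test at an adjusted p of 0.025, with a ZT16 mean of 25.1 TPM and an SD about as large. Vesicle coat genes had 9 rhythmic members of 22 (40.9%, below the 54.2% of all genes), 5 of them here, and 5 in all without the mice numbered 2. After rescaling 16 were rhythmic (72.7%, against 54.4% of all genes), 10 of them here. Ribosome biogenesis, read in Rrp12 (18.3 h) and Nop2 (19.9 h), had 22 of 46 (47.8%, also below all genes) with 9 here and 7 at 20 to 24 h. After rescaling it had 28 (60.9%) with 19 here and 4 at 20 to 24 h, while the whole window grew from 567 to 1368 genes. Of 68 cytosolic ribosomal protein genes 6 were rhythmic (8.82%). That count was 13 without the mice numbered 1, 1 without those numbered 3, 3 without those numbered 4, 16 without ZT0 and 3 without ZT12. The polyamine enzyme Srm peaked at 18.2 h and the heme oxygenase Hmox1 at 18.4 h. Kap, an abundant proximal tubule transcript, passed the test (17.95 h, amplitude 0.38, limma adjusted p = 0.039), but its highest and lowest groups overlapped.

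At 20 to 24 h, the end of the night, genes of sterol synthesis were high. Of 25 cholesterol genes 18 were rhythmic and 12 peaked here under either scaling (median amplitude over the 25, 0.286). Fdps, which makes farnesyl diphosphate, was at 30.1, 33.3, 34.8 and 37.4 TPM at ZT0 and at 11.3, 13.2, 14.3 and 14.7 at ZT12. All 4 mice at ZT0 lay above those at ZT12, with the peak at 22.7 h (amplitude 0.64). Idi1 (22.6 h) and Msmo1 (22.6 h) of the pathway peaked with it, whereas Hmgcs1 and Sqle did not pass (adjusted p = 0.39 and 0.16, limma). The lipogenic factor Srebf1 peaked at 19.98 h and its target Scd2 at 20.9 h.

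By the same minimum, the largest amplitudes of this window after Arntl and Nfil3 were those of Ppard, Sdf2l1 and the lysyl oxidase Loxl4 (1.35). Ppard, a nuclear receptor of fatty acid use, was at 54.6, 68.2, 80.3 and 115 TPM at ZT0 and at 9.02, 9.11, 10.7 and 11.4 at ZT8, the peak being at 22.4 h (amplitude 1.504), whereas Ppara peaked at 9.62 h. Avpr1a, a vasopressin receptor, was at 27.9, 27.9, 38.2 and 39.6 TPM at ZT0 and at 6.77 to 9.43 at ZT12 (peak 23.4 h). The water-channel regulating receptor Avpr2 peaked at 21.6 h, while 4 of 16 genes of aquaporins and urine concentration were rhythmic, 2 of them here. Of 15 genes of distal calcium and magnesium handling 9 were rhythmic (60%, near the 54.2% of all genes) and 7 peaked here: Calb1, the calcium buffer of the distal tubule, at 478, 551, 560 and 595 TPM at ZT24 and 197, 231, 233 and 338 at ZT8, and the exchanger Slc8a1 at 22.8 h. Slc8a1 was highest at ZT4 (373, 389, 438 and 651 TPM) and lowest at ZT8 (139, 145, 152 and 203), with no overlap between these neighbouring times. The channels Trpv5 and Trpv6 went different ways, Trpv6 peaking at 6.05 h and Trpv5 failing the test (adjusted p = 0.45). Of 5 markers of distal convoluted tubule cells, 3 were rhythmic and peaked here, all of them also members of this list (Calb1, Pvalb and Trpm6). The marker level was -0.354 ± 0.251 log2 units from its own mean at ZT8, against -0.234 ± 0.0997 for the list, and its part in the list's course was not tested.

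Mitochondrial subunits peaked late at night with small amplitudes. Complex I had 13 rhythmic genes of 35, 11 of them here (8 of 11 after rescaling), and ATP synthase 5 of 15, all here (3 of 5), both below the 54.2% of all genes. Over the tested members the median amplitude was 0.0636 for complex I and 0.058 for ATP synthase, below the 0.13 of all genes. The complex I count was 8 without the mice numbered 4 or without ZT12, and 7 without ZT8 or without ZT24. That of ATP synthase was 1 without the mice numbered 1, 2 without those numbered 3 or 4, 1 without ZT8, 2 without ZT24 and 3 without ZT12 or ZT20.

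Endothelial markers and part of the matrix genes also peaked at 20 to 24 h. Of 7 podocyte markers 5 were rhythmic and 4 peaked here too, so this time was not particular to vessels. Of 8 endothelial markers 7 were rhythmic and 6 peaked at 20 to 24 h, including the VEGF receptor Kdr (21.7 h, amplitude 0.45). The list's summed level was 670 to 716 TPM at ZT24 and 436 to 655 at ZT8, and in bulk tissue fewer endothelial cells and less RNA per cell cannot be told apart. Of 30 extracellular matrix genes 22 were rhythmic, 10 here, such as Col3a1 (21.5 h), 6 at 0 to 4 h and 4 at 16 to 20 h. Col6a2, at 19.95 h, was at 10.7 ± 0.537 TPM at ZT20 and 4.01 ± 0.469 at ZT8. Medullary marker sums had means of 1260 TPM at ZT8 and 1060 at ZT24, and the endothelial list had 8 rhythmic members without the 6 libraries of highest medullary level.

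Interferon response genes swung widely, and their level differed between the repeats of one clock time. Of 37 tested 30 were rhythmic, 27 at 4 to 8 h, with a median amplitude of 0.564, and after rescaling 20 were rhythmic and 18 of these peaked there. These are peaks of the fitted cosine. The list's level at ZT4 was -0.0139 ± 0.253 log2 units from its own mean (SD, n = 4). It was higher on either side, at 0.678 ± 0.254 at ZT0 and 1.04 ± 0.732 at ZT8. The immunity GTPases Igtp, Iigp1 and Tgtp1, the peptide transporter Tap1 and the immunoproteasome genes Psmb8, Psmb9 and Psmb10 all peaked within 6.87 to 7.49 h. Igtp was at 97.7, 254, 691 and 852 TPM at ZT8 and at 26.8 to 33.7 at ZT20. Tap1 was at 20.6, 44.2, 74.1 and 97.4 TPM at ZT8 and at 6.85 to 7.98 at ZT20. At ZT8 the mice differed several-fold among themselves, and the GTPase genes have near-identical copies, so their separate levels are uncertain. The count of 30 fell to 6 without the mice numbered 4, to 8 without those numbered 3, to 10 without ZT8 and to 4 without ZT20.

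The repeat of the clock time gave another reading of this list. Irf7, the regulator of interferon induction, was at 65.9, 67.5, 77.6 and 85.0 TPM at ZT0 but at 13.7 to 20.7 at ZT24, a change of -2.09 on the log2 scale (adjusted p = 0.000887, limma). Between ZT24 and ZT0 66 of 13192 genes differed (0.5%), 28 higher at ZT24 (0.212%) and 38 lower (0.288%). Of the 38, 17 were members of the 37-gene interferon list, Ifit1 (-1.87) among them. Ifi27 (-1.45), an interferon-induced gene of the same list, was lower as well. The list's level was 0.678 ± 0.254 log2 units from its own mean at ZT0 and -0.355 ± 0.0962 at ZT24, so the same clock time gave different levels in different mice.

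Genes higher at ZT24 included several of T and NK cells. Ccl5, a chemokine of such cells, was at 4.35, 6.11, 6.51 and 8.99 TPM at ZT0 and at 16.4, 24.8, 29.0 and 37.1 at ZT24, without overlap, a change of 1.87. Rac2 (0.76) and Gm13889 (0.52) were the other named genes of this direction. Cd8b1 (1.90), Nkg7 (1.54), Cd8a (1.08), Thy1 (1.07), Cd3d (1.07) and Lck (1.04), picked out after their values were seen, also rose. Summed markers of immune cells, mostly of macrophages, were 796 to 1090 TPM at ZT0 and 970 to 1090 at ZT24, and those of blood 1650 to 2560 and 2960 to 9190. Their part in the result was not tested. Without the 6 libraries of highest medullary level, among them 2 of the ZT0 mice, 15 genes differed, without the mice numbered 1 there were 26 and without those numbered 3 there were 24.

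**Figure D5:**
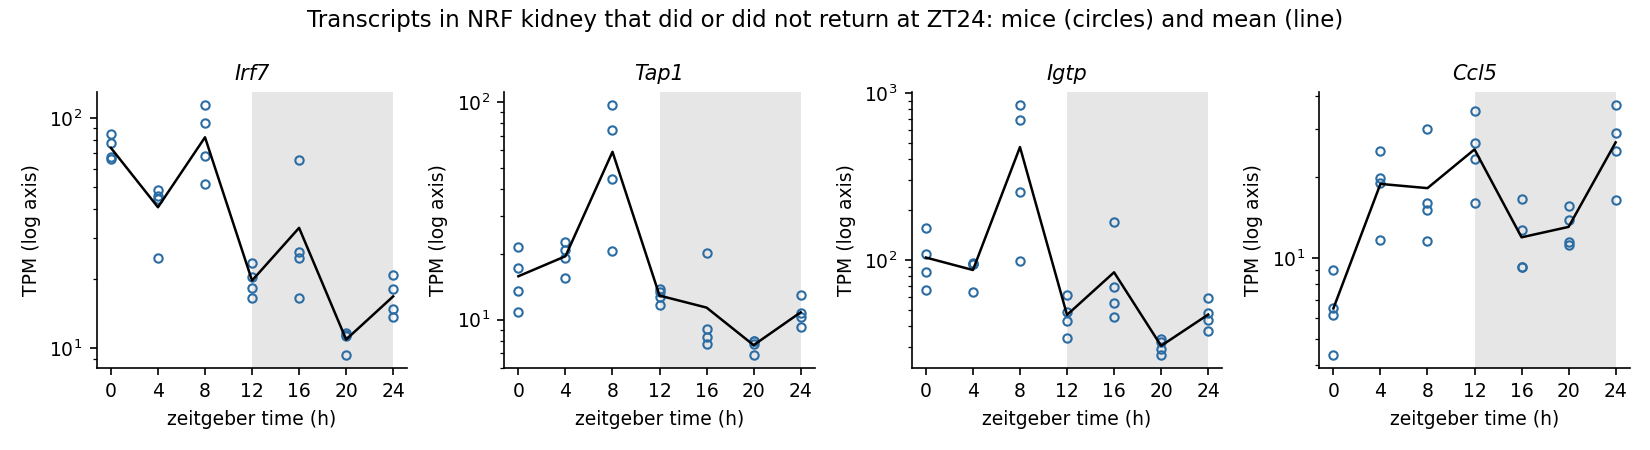
TPM on a log axis (y) against zeitgeber time (x, h) for 4 transcripts in NRF kidney; circles are single mice, lines join the means of 4 mice, and the dark phase is grey. Irf7 stood at 65.9 to 85.0 at ZT0 and 13.7 to 20.7 at ZT24 and Ccl5 at 4.35 to 8.99 and 16.4 to 37.1, and Igtp and Tap1 spread widely at ZT8.

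A 12-h cosine added to the 24-h one passed the test in 83 of 13192 genes (0.629%, 151 or 1.14% after rescaling). A single daily peak that is sharper than a cosine can also pass this test, so it does not by itself show 2 peaks a day. The count was 17, 2 and 29 without the mice numbered 2, 3 and 4. It was 824, 753, 452, 164 and 307 without ZT4, ZT8, ZT12, ZT16 and ZT20, 37 without ZT24, and 32 and 19 without the high-medulla and high-adipose libraries, so the number of such genes was not settled by these data. The smallest p-values were those of Ciart, Nr1d2, Sphk2, Pdia6 and Sdf2l1. Ciart was at 40.9 ± 3.94 TPM at ZT12 but at 4.79 ± 0.891 at ZT16 and 2.36 ± 0.336 at ZT4. Sphk2, the neighbour on the opposite strand of Dbp, was lowest at ZT12, when Dbp was highest.

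Against the day-fed mice, the NRF rhythm differed in amplitude or peak for 5984 of 13192 genes by the interaction of regimen and cosine (45.4%, and 49.4% after rescaling). The test was passed by 28 of 35 fatty acid oxidation genes, 21 of 25 cholesterol genes, 23 of 28 ER genes, 13 of 24 heat shock genes, 7 of 8 endothelial markers and 20 of 37 interferon genes. Angptl4 peaked at 9.32 h under NRF and 18.9 h under DRF (adjusted p = 1.81e-16), and Srebf1 at 19.98 h and 8.82 h (4.67e-17). The clock genes moved less, Dbp peaking at 10.6 h and 7.82 h and Per2 at 14.7 h and 11.4 h, yet 20 of the 21 rhythmic ones, all but Bhlhe40, passed the same test. Of the 17 glucocorticoid targets 8 passed it, a share near that of all genes. For 2 others of that list, Fkbp5 (13.5 h and 13.8 h, adjusted p = 0.90) and Zbtb16 (11.8 h and 13.6 h, adjusted p = 0.22), a difference was not detected.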

How the data were processed

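Kidney poly(A) RNA from 28 NRF and 28 DRF mice was sequenced on BGISEQ-500 by the authors, and the submitters' processing notes name HISAT2, Bowtie2 and RSEM with mm10 and GRCm38.p6, without versions used here. The deposited table of 17027 genes was named TPM by the authors, but its values, on another scale, behaved as log2(CPM + 1) divided by gene length. Reads were recovered from the steps of low values with GENCODE M21 lengths (16674 genes checked, 97.9%; over whole-read genes 99.9% of values came out whole), and linear TPM was rebuilt. The design had assumed linear TPM and was kept on the rebuilt values. NRF libraries held 24.6 to 26.3 M recovered reads.

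The 13192 checked genes averaging 1 TPM or more in the 56 libraries were fitted with limma 3.58.1 in R 4.3.3 on log2(TPM + 1) with a mean-variance trend and Benjamini-Hochberg adjustment. The moderated F tests were of a 24-h cosine, an added 12-h cosine, 6 clock times, departure of these from the cosine, ZT24 against ZT0 and the regimen by cosine interaction (all 56 libraries); every adjusted p in the text is from these fits. Python 3.11.15, pandas 2.3.3, numpy 2.4.6 and scipy 1.17.1 were used elsewhere. In simulated data each of the 13192 genes had a flat level with noise of its own within-group size. Rhythms were added to 50 genes at each amplitude. Of amplitudes of 0.1, 0.2, 0.5 and 1, 18%, 74%, 94% and 100% were called, and of unchanged genes 0.0462%.

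Named genes were the members of the clock lists, the 5 largest amplitudes per window (mean NRF TPM of at least 10, called under both scalings with peaks at most 2 h apart), the 3 largest per function list, the smallest p-values of the 12-h and departure tests, the largest ZT24 against ZT0 differences, and Kap. Some genes that this rule names are not reported here. Other list members were named after their values were seen. Members, lists and tests were chosen with earlier results of these data known. Groups came from the labels. Alternatives were median-of-ratios scaling, log2(CPM + 1), limma-voom, pseudocount 0.1, mean TPM filters, ranks, a replicate block, leaving out a replicate number or a time, and stricter calls. Settings on medullary and adipose markers were added after seeing the data. Promoters were RefSeq windows on GRCm38.p6, matched by symbol for 10363 of the 13192 genes. Where replicate numbers were shared across groups, deviations of same-numbered mice correlated at -0.0198 on average, against 0.00881 for different numbers, so the numbers did not pair the mice.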

Additional observations from a re-analysis of the deposited data

Results flagged for a closer look

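Among the 40 genes whose mice are given singly, each group of 4 was examined for a mouse far from the others by Dixon's 95% criterion, the gap to the nearest mouse over the group's range. Of 280 groups 18 passed, and chance gives about 1 in 20. They lay in 12 libraries.

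At ZT0, Per1 was at 12.7 TPM in mouse 4 and Slc6a19 at 164 in mouse 3. At ZT4, mouse 1 stood apart for Arntl (13.4 TPM), Calb1 (702) and Igtp (63.9), and mouse 2 for Manf (43.5). At ZT12, mouse 1 stood apart for Arntl (1.39 TPM) and mouse 4 for Sdf2l1 (11.8). At ZT16, mouse 1 stood apart for Psmb8 (44.1 TPM), Tap1 (20.3) and Glul (1800.0), and mouse 2 for Tsc22d3 (103). At ZT20, mouse 1 stood apart for Hsp90aa1 (694 TPM) and mouse 2 for Cirbp (19.4). At ZT24, mouse 1 stood apart for Sdf2l1 (51.7 TPM), Pdk4 (37.9) and Syvn1 (35.0), and mouse 3 for Per2 (6.18).

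The NRF and DRF rhythms differed for 5984 genes by the limma test of the interaction itself.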

How the results depend on the processing

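The number of rhythmic genes (7154) was 1689 with a peak-to-trough ratio of at least 1.5 and 5202 to 6977 without each replicate number. The 12-h count (83) was 151 after median-of-ratios rescaling, 156 with log2(CPM + 1), 19 at an adjusted p under 0.01, 32 without the high-medulla and 19 without the high-adipose libraries, 2 to 74 without each replicate number, and 824, 753, 452, 164, 307 and 37 without ZT4, ZT8, ZT12, ZT16, ZT20 and ZT24. The time-of-day count (6504) was 4128 to 6360 without each replicate number. Departure from the cosine (868) was 1498 after rescaling, 1531 with log2(CPM + 1), 1335 with limma-voom, 299 at an adjusted p under 0.01, 371 without the high-medulla and 438 without the high-adipose libraries, and 104 to 800 without each replicate number. ZT24 against ZT0 (66) gave 38 at a mean TPM of at least 5, 37 at an adjusted p under 0.01, 15 without the high-medulla and 38 without the high-adipose libraries, and 24 to 61 without each replicate number. The interaction count ranged from 4239 to 5666 without each replicate number. The cause of these shifts was not tested.

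With the replicate block, which pairs mice by a number only, 6629 genes were rhythmic, 30 passed the test of the added 12-h cosine and 37 differed between ZT24 and ZT0.

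In the windows from 0 to 24 h, rescaling gave 509, 1478, 1608, 545, 1368 and 1671 genes. With log2(CPM + 1), 519, 1455, 508 and 1394 genes peaked at 0 to 4, 4 to 8, 12 to 16 and 16 to 20 h. A peak-to-trough ratio of at least 1.5 left 134, 577, 312, 91, 195 and 380. Without each replicate number the ranges were 618 to 1131, 1652 to 3192, 889 to 1049, 157 to 255, 338 to 638 and 1270 to 1524. Without ZT16, 1687 genes peaked at 4 to 8 h and 215 at 16 to 20 h. Of the 186 named genes that were rhythmic, 179 stayed called after rescaling, 181 with the replicate block, 165 to 177 without each replicate number and 160 without ZT8. At an amplitude of 0.1 the simulated data were called in 18% of 50 genes, so rhythms of that size can be missed. Few genes carried a rhythm there, whereas 54.2% of genes were called in the mice. The 10th percentile of amplitude among these called genes was 0.103. The share of such rhythms missed in the mice was not tested.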
